A study of Rattus norvegicus with 99 samples.

Results

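The genes of 3 gap junction proteins, 1 sodium channel subunit and 2 further markers of the cardiac conduction system were followed through the hearts of rats with a banded pulmonary artery or aorta. They are Gja1, Gja5, Gjc1, Scn4b, Cntn2 and Tbx3, chosen by their symbol, and all 6 were found among the 17337 genes of the deposited table. Gap junctions are clusters of channels that join neighbouring heart muscle cells and let the electrical impulse pass from cell to cell. They are built from connexins. Gja1 encodes connexin 43, the main connexin of the working ventricle. Gja5 encodes connexin 40, found in atrial muscle, in the fast-conducting His-Purkinje fibres and in the endothelium of arteries. Gjc1 encodes connexin 45, the connexin of the nodes and of the slower parts of the conduction system. Scn4b encodes a beta subunit of the voltage-gated sodium channel, the channel that gives the upstroke of the action potential. Cntn2, or contactin 2, is a cell adhesion molecule of neurons and of Purkinje cells. Tbx3 is a T-box transcription factor that holds the nodes and the proximal conduction system in a slow-conducting state and is known to repress Gja1 and Gja5. The interventricular septum carries the His bundle and the proximal bundle branches, and the question addressed here is whether these genes stood apart in the septum from the free walls of both ventricles.

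The series holds 99 libraries from 33 male rats, F1 hybrids with a Wistar Kyoto mother and a Lewis father. Every animal gave 1 library of the right ventricle (RV), 1 of the left ventricle (LV) and 1 of the septum between them (Spt). A clip that did not narrow the vessel when placed, but did so as the animal grew, was placed on the pulmonary artery (PAB, loading the RV) or on the aorta (AOB, loading the LV), and sham animals were operated without a clip. At the compensated stage there were 7 Sham-H, 7 PAB-H and 7 AOB-H animals, 11 weeks old and 7 weeks after surgery by their labels. At the failure stage there were 3 PAB-F and 2 Sham-RF animals of 27 weeks, 21 weeks after surgery, and 4 AOB-F and 3 Sham-LF animals of 30 weeks, 24 weeks after surgery. The study's text gives other ages, and the labels were followed here. No animal carried a transgene or a drug treatment by the labels. Whole tissue was sequenced, so fewer cells of a type and less RNA per cell cannot be told apart, and a small conduction fibre contributes little to a piece of ventricular wall. Levels are CPM, the counts of a gene scaled to a common library total with TMM factors, and a gene was called changed at an adjusted p under 0.05 in edgeR's quasi-likelihood test.

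Total counts were 12.1 to 24.2 M per library, with similar ranges in the 3 chambers, and 9 of 10 listed ventricular cardiomyocyte genes were in the table and well detected. The library numbers fall into 3 series, which are not balanced over the chambers. Of 33 animals, 6 had LV and RV libraries of series 1, whereas 0 Spt libraries belonged to it, and only 9 animals had all 3 libraries in 1 series. In all 12 animals of the failure stage, shams included, LV and RV were of series 2 and Spt was of series 3. Spt and series therefore cannot be told apart in those conditions. The Spt library of Sham-H replicate 5 deviated most from its group, with a mean squared deviation of 0.502 on the log2 scale against 0.312 for the next library. In 3 animals (Sham-H replicate 6, PAB-H replicate 2 and AOB-H replicate 1) the LV and RV libraries look exchanged, which does not alter the mean of their free walls.

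The sequences before the transcription start are shown for Gja1 and Gja5, the connexins that Tbx3 is known to repress and whose levels in Spt differed most between older and young shams. Each run holds the 250 bases before the start, on the plus strand of the rat assembly GRCr8 as given by RefSeq, chr20:36302314-36302563 for Gja1 and chr2:187290977-187291226 for Gja5. Capitals mark matches, on either strand, to 4 short motifs.

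Gja1: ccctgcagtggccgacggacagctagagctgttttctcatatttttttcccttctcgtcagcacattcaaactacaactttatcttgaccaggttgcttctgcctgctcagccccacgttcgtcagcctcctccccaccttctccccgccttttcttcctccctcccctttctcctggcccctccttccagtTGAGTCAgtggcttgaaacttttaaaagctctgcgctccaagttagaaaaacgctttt
Gja5: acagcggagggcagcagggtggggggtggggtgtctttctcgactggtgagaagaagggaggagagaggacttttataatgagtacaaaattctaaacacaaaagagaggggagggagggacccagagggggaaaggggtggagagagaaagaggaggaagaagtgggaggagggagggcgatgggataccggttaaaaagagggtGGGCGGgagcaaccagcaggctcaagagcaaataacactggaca

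The motifs searched were the T-box core GGTGTG, the NK2 core TNAAGTG, the AP-1 motif TGANTCA and the GC box GGGCGG. Gja1 held an AP-1 match that began 58 bases before the start, a motif present in 6.34% of 33469 promoters of the same length. Gja5 held a GC box 44 bases before the start, present in 30.5% of all promoters. The T-box core, present in 15.4% of promoters, and the NK2 core, present in 9.89%, were not among the letters of these windows. Promoters were matched for 4 of the 6 genes, those 2 with Scn4b and Cntn2, and not for Gjc1 and Tbx3.

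Compared per length, Gja1 was the most abundant of the 6 genes, with a median of 107 FPKM, the deposited level scaled for gene length, over 99 libraries. Scn4b followed with a median of 43.5 FPKM. Gjc1 and Gja5 were similar in abundance, at medians of 10.2 and 7.24 FPKM. Tbx3 had a median of 3.29 FPKM, and Cntn2, at 0.213 FPKM, was the least abundant. Cntn2 rested on 4 to 46 counts per library with a median of 19, so its values carry a large counting error, whereas every library held at least 3173 counts of Gja1 and 32 of Tbx3.

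**Figure D1:**
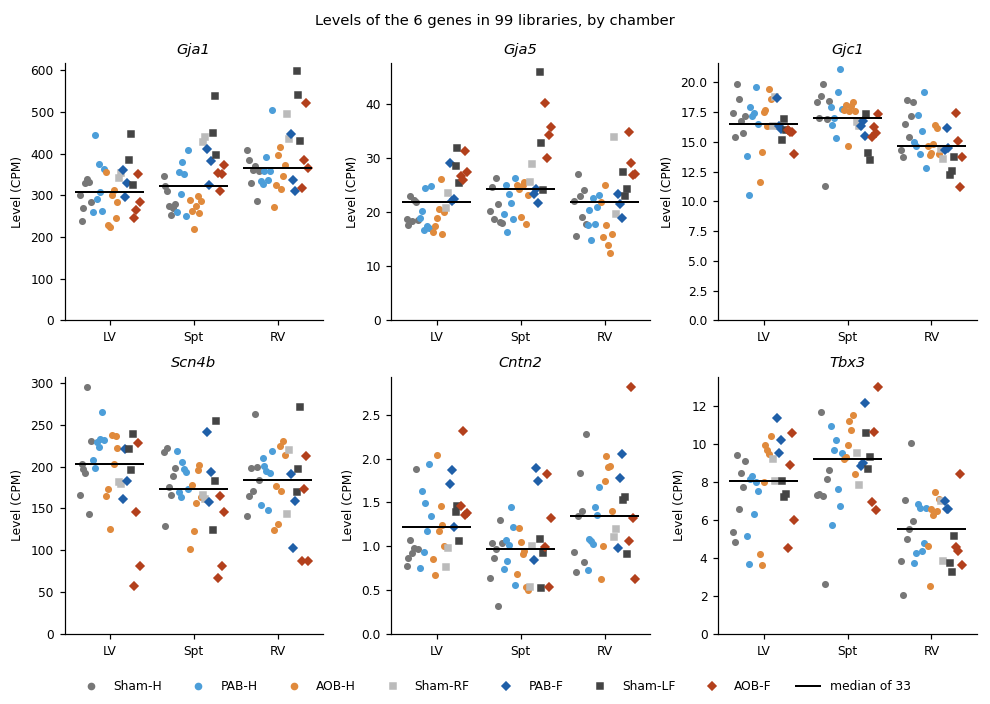
Level in CPM (vertical axis, linear from 0) of each gene in the 33 libraries of each chamber, coloured by condition, with the median as a line. The clouds overlap between chambers for all 6 genes, and the clearest shifts are the higher Gja1 and lower Tbx3 of RV.

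Among the 21 groups of condition and chamber the mean levels of a gene differed by 1.39-fold to 2.56-fold from the lowest to the highest group. Gja1 was highest in Sham-LF RV (523 ± 85.7 CPM, SD, n = 3) and lowest in AOB-H Spt (270 ± 26.5 CPM, n = 7). Gja5 was highest in AOB-F Spt (35.0 ± 4.2 CPM, n = 4) and lowest in AOB-H RV (17.5 ± 4.51 CPM, n = 7). Gjc1 had the narrowest range, from 12.8 ± 0.774 CPM in Sham-LF RV (n = 3) to 17.8 ± 1.90 CPM in PAB-H Spt (n = 7). These 3 connexins therefore peaked in different groups. Scn4b ranged from 115 ± 47.8 CPM in AOB-F Spt (n = 4) to 227 ± 21.2 CPM in PAB-H LV (n = 7). Cntn2 ranged from 0.770 ± 0.334 CPM in Sham-RF Spt (n = 2) to 1.63 ± 0.461 CPM in AOB-F LV (n = 4). Tbx3 ranged from 4.06 ± 0.965 CPM in Sham-LF RV (n = 3) to 10.4 ± 0.926 CPM in PAB-F LV (n = 3). When the 21 groups were put in order, the 20 pairs of neighbours differed by no more than the larger of their SDs in every case for Gja1, Gja5, Cntn2 and Tbx3, and in 19 of 20 for Gjc1 and Scn4b. Of the 7 groups with the highest means, 5 were Spt groups for Tbx3 and 4 for Gjc1, and 4 were RV groups for Gja1.

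Over the 7 conditions, Tbx3 and Gja5 were higher in Spt than in the free walls and Cntn2 was lower, whereas Gja1, Gjc1 and Scn4b did not pass the test. Each condition had equal weight in this average, whatever its number of animals. The 12 failure-stage animals, 2 to 4 per condition, therefore weighed more per animal than the 21 of the compensated stage. In those 12, Spt and series cannot be told apart. Of the 11924 genes tested, 13.7% were called in this comparison, and 3 of the 6 genes were among them. Tbx3 had the largest difference, a log2 fold change of 0.47 ± 0.10 (SE; adjusted p = 0.000438). Its levels were 2.64 CPM at the lowest, 9.21 at the median and 13.0 at the highest of 33 Spt libraries, against 3.63, 8.06 and 11.4 CPM in LV and 2.07, 5.55 and 10.1 CPM in RV. The ranges overlapped throughout, and the Spt median lay closer to that of LV than to that of RV. Within animals, Tbx3 was higher in Spt than in the mean of both free walls in 28 of 33.

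Gja5, the connexin of the fast-conducting fibres, was higher in Spt by a log2 fold change of 0.19 ± 0.06 (adjusted p = 0.0156) and in 23 of 33 animals. It ran from 16.3 CPM through a median of 24.3 to 45.9 CPM in Spt, from 15.9 through 21.9 to 31.8 CPM in LV, and from 12.4 through 22.0 to 34.9 CPM in RV. The highest library, Sham-LF Spt replicate 1, lay at 45.9 CPM. Cntn2, the Purkinje cell adhesion molecule, was lower in Spt, with a log2 fold change of -0.42 ± 0.13 (adjusted p = 0.014), and lay below the free-wall mean in 26 of 33 animals. Its median was 0.967 CPM in Spt (range 0.319 to 1.89), 1.22 in LV (0.676 to 2.32) and 1.35 in RV (0.628 to 2.81).

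The remaining genes differed less between Spt and the free walls. Gjc1, the nodal connexin, lay at a log2 fold change of 0.09 ± 0.04 (adjusted p = 0.149), although its level in Spt was above the free-wall mean in 25 of 33 animals. Scn4b lay at -0.11 ± 0.09 (adjusted p = 0.441) and was higher in Spt in 13 of 33 animals. Gja1 lay at -0.02 ± 0.05 (adjusted p = 0.834), and its median in Spt stood between those of LV and RV. In Spt it was below the free-wall mean in 21 of 33 animals. These were 18 of 21 of the compensated stage and 3 of 12 of the failure stage, so the stages differed in sign. In all 12 failure-stage animals Spt and the free walls were of different series, so stage and series cannot be told apart here. DESeq2's Wald test also called Tbx3 and Gja5 as higher and Cntn2 as lower, and no other of the 6. Gja5 was not called without Sham-RF replicate 2 (0.16, adjusted p = 0.104) or without Sham-LF replicate 1 (0.15, adjusted p = 0.0706), and Cntn2 was not called without Sham-RF replicate 1 (-0.38, adjusted p = 0.0787).

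**Figure D2:**
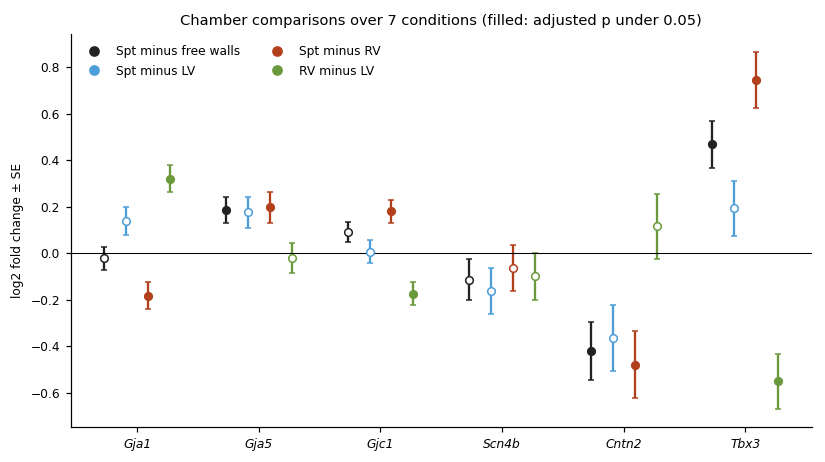
Log2 fold change with its SE (vertical axis) of the 6 genes in 4 chamber comparisons over 7 conditions. Filled points passed an adjusted p of 0.05. Tbx3 and Cntn2 lie farthest from 0, and Gja1 has opposite signs against LV and RV.

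The library series moved with part of this result. At the compensated stage, the Tbx3 level in LV was 3.63 to 5.37 CPM in the 6 libraries of series 1. It was 6.33 to 9.96 CPM in the 9 of series 2 and 7.55 to 10.5 CPM in the 6 of series 3. In LV, series 1 thus did not overlap the others, and the share of all genes separated in this way was not counted. In RV the Tbx3 level was 2.07 to 4.61 CPM in series 1, 4.38 to 7.46 in series 2 and 4.80 to 10.1 in series 3. Spt had no library of series 1, and there Tbx3 was 2.64 to 11.0 CPM in series 2 and 5.73 to 11.7 in series 3. At this stage the lowest free-wall levels of Tbx3 thus came from a series that Spt lacked. At the failure stage, RV libraries of series 2 reached similar levels, with 3.29 CPM in Sham-LF replicate 2 and 3.61 CPM in AOB-F replicate 4. The compensated-stage median of Cntn2 was also lowest in series 1, at 0.814 CPM in LV and 0.835 in RV. It was 1.17 and 1.44 CPM in series 2 and 1.29 and 1.54 CPM in series 3. In Spt it was 0.715 CPM in series 2 and 1.02 in series 3, below both free walls of the same series. Other members were lower in series 1 too. The LV medians of Gjc1 in series 1, 2 and 3 were 13.97, 17.5 and 17.9 CPM, and its RV medians 14.49, 15.87 and 16.69 CPM. The LV medians of Scn4b were 186.0, 223.5 and 231.3 CPM. Without the 6 animals of series 1, Tbx3 was still called in Spt against the free walls (log2 fold change 0.40, adjusted p = 0.000324), whereas Gja5 was not (0.16, adjusted p = 0.074). That fit kept the failure-stage animals, whose Spt and free walls were of different series. With the library series as a covariate, Tbx3 was no longer called (0.29, adjusted p = 0.0607), while Gja5 (0.22, adjusted p = 0.0482) and Cntn2 (-0.58, adjusted p = 0.00617) were.

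The 9 animals with 3 libraries of 1 series hold the comparison free of that imbalance, with the animal as a block, but they are few. In them 0 of the 6 genes were called. The log2 fold changes were 0.11 for Tbx3 (adjusted p = 0.619), 0.14 for Gja5 (adjusted p = 0.226) and -0.75 for Cntn2 (adjusted p = 0.0945). Leaving out Sham-H replicate 5 among them, whose Spt library held 2.64 CPM of Tbx3 and 4 counts of Cntn2, gave 0.23, 0.11 and -0.66 in the same order, again with no call. Tbx3 was above the free-wall mean in 6 of these 9 animals, Gja5 in 6 and Gjc1 in 8, and Cntn2 was below it in 7. The 3 estimates had the same signs as over all 33 animals.

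**Figure D3:**
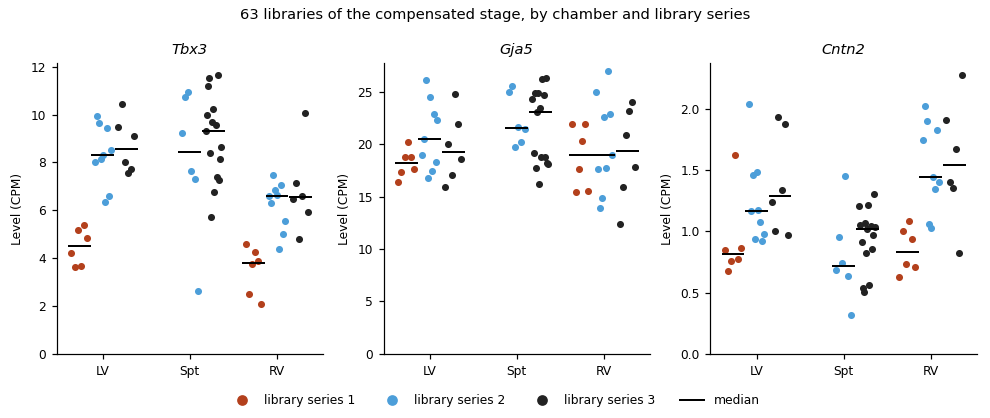
Levels in CPM (vertical axis, linear from 0) of Tbx3, Gja5 and Cntn2 in the 63 libraries of the compensated stage, by chamber and library series, with medians as lines. The series 1 libraries, present in LV and RV but not in Spt, lie lowest for Tbx3.

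Set against each ventricle in turn, more of the 6 genes were called between Spt and RV than between Spt and LV. Against LV, 9.37% of all genes and 0 of the 6 were called by edgeR, and also 0 by DESeq2. At an unadjusted p under 0.05 there were 3 of the 6, Gja1, Gja5 and Cntn2, where 20.9% of all genes lay under that limit. With the animal as a block, which uses that the 3 libraries of an animal belong together, 14.1% of genes were called in Spt against LV, and these 3 passed: Gja1 at a log2 fold change of 0.14 (adjusted p = 0.0382), Gja5 at 0.17 (adjusted p = 0.0354) and Cntn2 at -0.37 (adjusted p = 0.0354). Gja1 was higher in Spt than in LV in 12 of 12 failure-stage animals, whose Spt and LV were of different series. At the compensated stage it was higher in 11 of 21. Tbx3 did not pass against LV in either fit (0.19 ± 0.12, adjusted p = 0.36 without the block).

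Against RV, 23.4% of genes were called and 5 of the 6. Tbx3 was higher in Spt by 0.74 ± 0.12 on the log2 scale (adjusted p = 1.5e-06) and in 30 of 33 animals. Gjc1 was higher by 0.18 ± 0.05 (adjusted p = 0.00475), in 28 of 33 animals, and Gja5 by 0.20 ± 0.07 (adjusted p = 0.0202), in 26 of 33. Gja1 was lower in Spt than in RV by -0.18 ± 0.06 on the log2 scale (adjusted p = 0.0155), in 26 of 33 animals, and Cntn2 by -0.48 ± 0.14 (adjusted p = 0.00901), in 24 of 33. Scn4b was the exception, at -0.06 (adjusted p = 0.667). The same 5 genes were called without the 3 animals whose ventricles look exchanged, with Tbx3 at 0.77 and Gja1 at -0.20, and without Sham-H replicate 5, with Tbx3 at 0.77 and Gja1 at -0.17. Gja5 was not called against RV without the 6 animals of series 1 (0.18, adjusted p = 0.0659), without Sham-RF replicate 2 (0.14, adjusted p = 0.179) or without Sham-LF replicate 1 (0.17, adjusted p = 0.0624), and without Sham-RF replicate 1 neither Gja1 (-0.16, adjusted p = 0.0759) nor Cntn2 (-0.43, adjusted p = 0.055) was. In the 9 animals of 1 series, Gja1 was the 1 gene called against RV (-0.30, adjusted p = 0.0292), with Tbx3 at 0.32 (adjusted p = 0.236). With the library series as a covariate, 3 of the 6 genes were called against RV. Gjc1 was higher in Spt than in RV in 6 of the 6 animals with free walls of series 1. Among the 9 animals of 1 series it was higher in 7.

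The free walls differed from each other in 3 of the 6 genes, where 28.4% of all genes were called. Gja1, the working connexin, was higher in RV than in LV by a log2 fold change of 0.32 ± 0.06 (adjusted p = 3.05e-05). Its level was 272 CPM at the lowest, 366 at the median and 598 at the highest of 33 RV libraries, against 225, 308 and 448 CPM in LV. It was higher in the RV of 29 of 33 animals and its mean was higher in RV in all 7 conditions. Tbx3 was lower in RV, at -0.55 ± 0.12 (adjusted p = 0.000366), in 29 of 33 animals and in the means of all 7 conditions. A link between the Gja1 and Tbx3 differences was not tested. Gjc1 was lower in RV, at -0.17 ± 0.05 (adjusted p = 0.00599), in 26 of 33 animals. Its median was 14.6 CPM in RV (11.2 to 19.2) and 16.5 CPM in LV (10.5 to 19.9). The LV and RV libraries of an animal always belonged to the same series, and with the series as a covariate these differences were 0.32, -0.55 and -0.17. Without the 3 animals whose ventricles look exchanged they were 0.37, -0.59 and -0.19, all called. In the 9 animals of 1 series 0 of the 6 were called between the free walls.

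Within single conditions none of the 6 genes was called in Spt against the free walls. Of 42 tests in 7 conditions, 0 passed in edgeR and 0 in DESeq2, and 10 had an unadjusted p under 0.05, where 8.91% of all tests did. The share of all genes called was 0.579% in Sham-H, 0.176% in PAB-H, 1.98% in AOB-H, 0.126% in Sham-LF and 0.428% in AOB-F, and 0% in Sham-RF and 0% in PAB-F. The log2 fold change of Tbx3 was above 0 in each condition, from 0.24 in Sham-H to 0.78 in Sham-LF, and that of Gja5 from 0.02 in PAB-F to 0.36 in Sham-LF. In Sham-H, replicate 5 had a Tbx3 difference of -1.35 on the log2 scale between Spt and its free-wall mean, while the other animals lay between -0.112 and 1.19. The Sham-LF value of Gja5 was 0.13 without replicate 1, the library at 45.9 CPM, and 0.51 without replicate 3. That of Cntn2 was below 0 in each, from -0.09 in PAB-F to -0.70 in AOB-H. In AOB-H, where the LV was loaded, the animal as a block brought calls for Tbx3 (0.63, adjusted p = 0.0127), Gja5 (0.32, adjusted p = 0.0317) and Cntn2 (-0.68, adjusted p = 0.0348). The 1.98% of all genes is from the fit without the block, and the share with it is not given here. With the library series as a covariate, 1 of the 6 genes was called within single conditions. The free walls of AOB-H replicates 1 and 2 were of series 1, which Spt lacked. Among AOB-H animals, Tbx3 was above the free-wall mean in 6 of 7, Gja5 in 6 of 7 and Cntn2 in 1 of 7.

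No change of the difference between Spt and the free walls with banding was called. Of 24 tests of the interaction of banding with chamber, 0 passed in edgeR or DESeq2 and 0 had an unadjusted p under 0.05, where 1.59% of all tests did. The share of all genes called was 0.0503% for PAB-H, 0% for AOB-H, 0% for PAB-F and 0% for AOB-F, each against its shams. The interaction estimate for Tbx3 in AOB-F was -0.21 ± 0.40 and that for Gja5 in AOB-H was 0.28 ± 0.16.

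Banding itself was called for none of the 6 genes in any chamber. Of 72 tests, 0 passed in edgeR or DESeq2, and 9 had an unadjusted p under 0.05, where 6.92% of all tests did. The share of all genes called was 0.837% for the LV of AOB-F, 0.232% for its Spt and 0% for its RV. It was 0% in every chamber of PAB-H, AOB-H and PAB-F. The largest estimates for the more abundant genes came from aortic banding at the failure stage, in Scn4b and Gja1.

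Scn4b, the sodium channel subunit, had lower levels in some AOB-F hearts. In LV the 4 AOB-F libraries held 56.7, 146, 229 and 80.9 CPM, against 221, 196 and 239 CPM in the 3 Sham-LF libraries. In Spt the AOB-F values were 67.2, 165, 81.0 and 146 CPM against 124, 183 and 254 CPM. In RV they were 87.8, 174, 213 and 87.8 CPM against 170, 197 and 271 CPM. Replicates 1 and 4 were low in both free walls and replicate 3 was at the level of the shams there, whereas in Spt replicates 1 and 3 were low. The Spt libraries of replicates 1 and 2 are exchanged in a sample sheet of the study. That exchange does not concern replicates 3 and 4, whose order in Spt was opposite to that in the free walls. Tbx3 in replicates 3 and 4 was likewise 10.6 and 5.99 CPM in LV but 6.5 and 13.0 CPM in Spt. Whether these Spt libraries belong to the animals named was not tested, and counts per animal rest on it. For Scn4b the groups overlapped in each chamber. The log2 fold change was -0.77 ± 0.28 for the LV (adjusted p = 0.184), -0.72 ± 0.25 for Spt (adjusted p = 0.189) and -0.59 ± 0.27 for the RV (adjusted p = 0.368). Without AOB-F replicate 3 the LV difference was -1.21 and was called (adjusted p = 0.00511), and without replicate 1 it was -0.53 (adjusted p = 0.692). Without Sham-LF replicate 3 the Spt value was -0.44 and the RV value -0.39, neither of them called.

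Gja1 was likewise lower on average after aortic banding at the failure stage without passing the test. In LV the AOB-F libraries held 245, 266, 350 and 283 CPM against 386, 448 and 324 CPM in Sham-LF. In Spt they held 354, 311, 352 and 372 CPM against 449, 538 and 397 CPM, with no overlap between groups. The share of all genes without overlap was not counted, and 0.232% of all genes were called in this comparison. In RV they held 317, 386, 522 and 366 CPM against 598, 540 and 430 CPM. Its log2 fold changes were -0.43 ± 0.17 for the LV (adjusted p = 0.237), -0.42 ± 0.14 for Spt (adjusted p = 0.169) and -0.39 ± 0.17 in RV (adjusted p = 0.365). In PAB-F the Gja1 estimate was -0.08 for the LV, -0.22 for Spt and -0.36 for the RV.

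**Figure D4:**
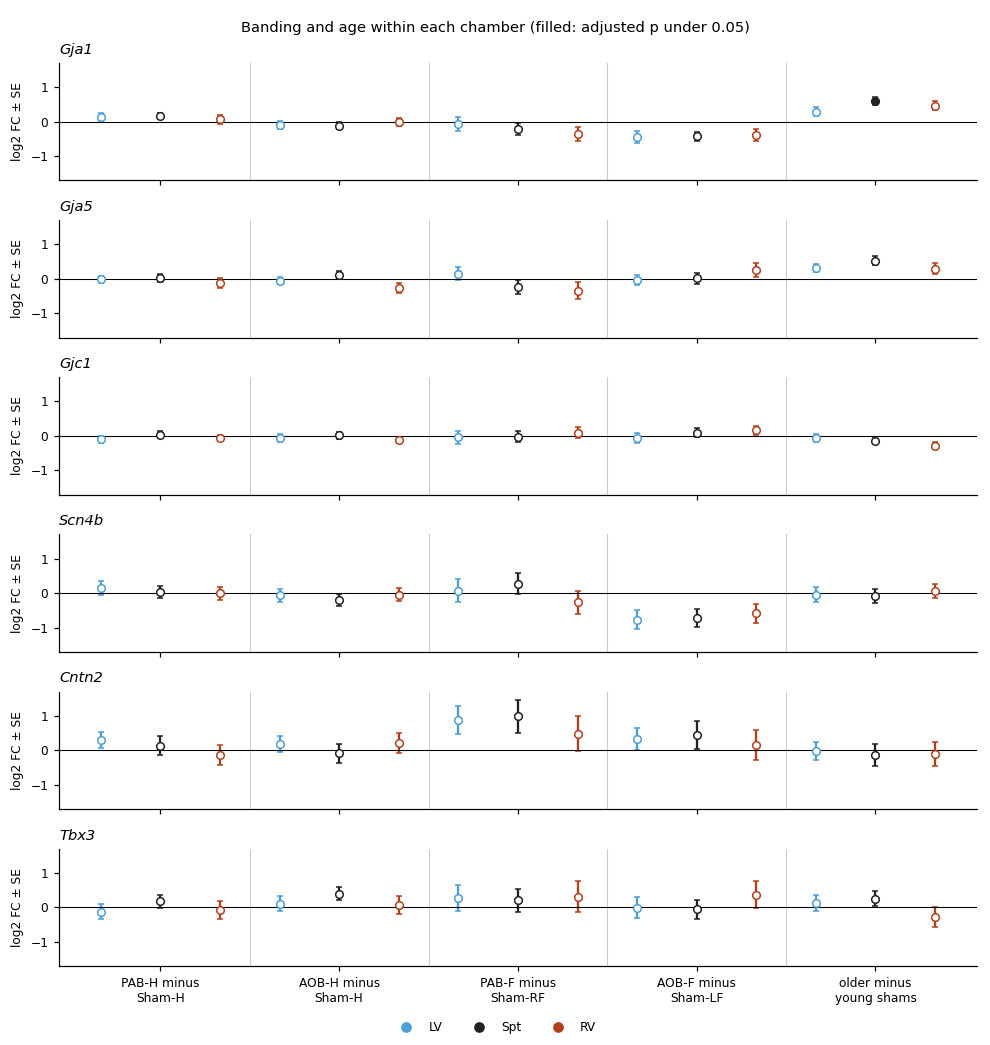
Log2 fold change with its SE (vertical axes) of each gene for 4 banding comparisons and for older against young shams, in LV, Spt and RV. The only filled point, with an adjusted p under 0.05, is Gja1 in Spt of older shams, and Scn4b lies below 0 in all 3 chambers of AOB-F.

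Cntn2 had its largest banding estimates in PAB-F, with log2 fold changes of 0.88 ± 0.41 in LV (adjusted p = 1) and 0.99 ± 0.48 in Spt (adjusted p = 0.816), at around 1 CPM and with 2 shams. The Spt value was 0.57 without Sham-RF replicate 1 and 1.5 without replicate 2. Gja5, Gjc1 and Tbx3 lay between -0.34 and 0.39 on the log2 scale in all 12 banding comparisons. Tbx3 in AOB-H Spt was at 0.39 ± 0.19 (adjusted p = 0.311), and at 0.26 without Sham-H replicate 5 (adjusted p = 0.615).

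The 1 call within a chamber came with age. In Spt, Gja1 was higher in the 5 older shams (Sham-RF and Sham-LF) than in the 7 young shams by a log2 fold change of 0.60 ± 0.11 (adjusted p = 0.0152), 1 of 12 genes called, or 0.103% of all. The older shams held 429, 440, 449, 538 and 397 CPM, and the young shams ran from 253 through a median of 280 to 346 CPM. The groups did not overlap, and the share of all genes without overlap was not counted. Within library series 3, to which all older Spt libraries belong, the difference was 0.62 (adjusted p = 0.00561). The call was lost with only the 12 libraries of the groups compared in the fit (adjusted p = 0.137), without either Sham-RF animal (0.62 without replicate 1, adjusted p = 0.0659, and 0.59 without replicate 2, adjusted p = 0.134), without Sham-LF replicate 2 (0.54, adjusted p = 0.0678), and without the 3 animals whose ventricles look exchanged (0.59, adjusted p = 0.068).

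The connexins Gja1 and Gja5 had higher estimates with age in every chamber. Gja1 was at 0.28 ± 0.13 in LV (adjusted p = 0.683) and 0.47 ± 0.13 in RV (adjusted p = 0.228). Gja5 was at 0.53 ± 0.13 in Spt (adjusted p = 0.0702), 0.32 ± 0.12 in LV (adjusted p = 0.523) and 0.29 in RV (adjusted p = 0.508). In Spt the older shams held 25.6, 28.9, 45.9, 32.7 and 24.1 CPM of Gja5 and the young shams 18.1 to 26.4 CPM with a median of 20.2, so that the groups overlapped. DESeq2's Wald test called Gja5 in Spt (adjusted p = 0.0217), as did edgeR with all 99 libraries in 1 fit (adjusted p = 0.0454), without Sham-H replicate 5 (adjusted p = 0.0297) and without Sham-LF replicate 3 (0.63, adjusted p = 0.0113), while without Sham-LF replicate 1 the value was 0.40 (adjusted p = 0.257). Gjc1 went the other way, at -0.28 ± 0.10 in RV (adjusted p = 0.331). Scn4b lay within 0.10 of 0 in all 3 chambers. The share of all genes called with age was 0.0171% in LV and 0.0852% in RV. Among the 12 tests of the 6 genes in the free walls 0 passed in edgeR or DESeq2 and 4 had an unadjusted p under 0.05, where 9.01% of all tests did. The older shams also differed from the young in time after surgery, and these cannot be told apart. In LV and RV all older-sham libraries were of series 2, whereas the young shams were spread over series 1, 2 and 3. Age and series are therefore partly mixed in the free walls. Differences of age between chambers were not tested.

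**Figure D5:**
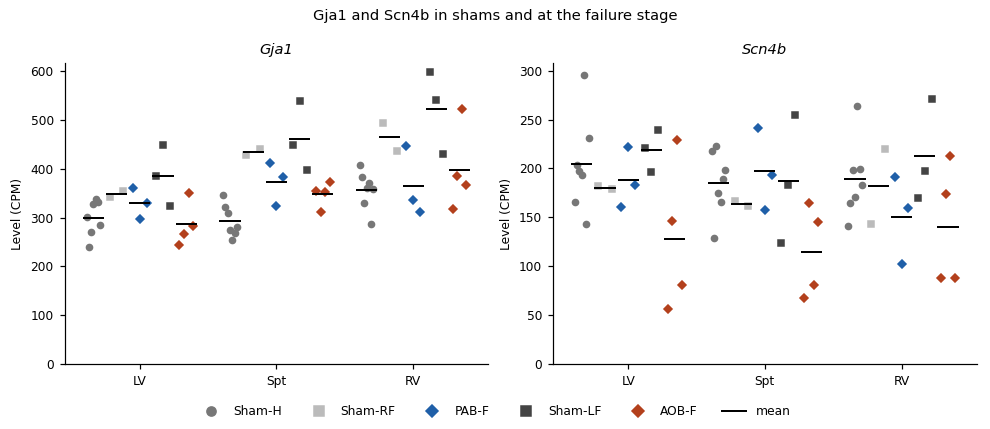
Levels in CPM (vertical axis, linear from 0) of Gja1 and Scn4b in young shams (Sham-H), the failure groups PAB-F and AOB-F and their shams, by chamber, with group means as lines. Gja1 of the 5 older shams in Spt, 397 to 538 CPM, lies above all 7 young shams, and Scn4b of AOB-F spreads from 56.7 to 229 CPM in LV.

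The other connexins were mostly absent from these tissues. Of 17 listed, 15 were in the table and 3 had enough counts to be tested, Gja3 and Gja4 among them. Gja3, which encodes connexin 46, was lower in Spt than in the free walls, at -0.47 ± 0.13 on the log2 scale (adjusted p = 0.00638), with a median level of 12.4 CPM in Spt, 15.7 in LV and 18.0 in RV. Gja4, the connexin 37 of arterial endothelium, did not pass. The list's median was -0.01 against -0.00 over all genes tested.

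Of 13 other sodium channel subunits, 10 were tested in Spt against the free walls, with 1 higher, 1 lower and a list median of 0.13. Scn3b, another beta subunit, was higher in Spt at 0.60 ± 0.15 (adjusted p = 0.00279), with a median of 3.36 CPM in Spt against 2.27 in LV and 1.66 in RV. Scn7a, an atypical sodium channel, was lower at -0.44 ± 0.13 (adjusted p = 0.0111). The beta subunits Scn3b and Scn4b thus had opposite signs in Spt, of which that of Scn3b was called.

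Of 18 transcription factors of the conduction system, 17 were tested and 8 called, 5 higher and 3 lower in Spt, with a list median of -0.01, where 13.7% of all genes were called. Irx2 and Irx1, homeobox factors, stood out with log2 fold changes of 2.19 ± 0.17 (adjusted p = 2.74e-17) and 1.85 ± 0.18 (adjusted p = 2.43e-13). The median level of Irx2 was 13.0 CPM in Spt, 5.16 in LV and 1.3 in RV, and that of Irx1 9.16, 4.94 and 1.06 CPM. Shox2, a factor of the sinus node, was lower in Spt at -1.44 ± 0.30 (adjusted p = 0.000281), at levels under 1 CPM in every chamber. Hopx, Irx5 and Irx3 were the other genes that were higher, and Id2 and Hey2 the other lower ones. Tbx2, the repressor most like Tbx3, was not called against the free walls but was higher in Spt than in RV (0.33 ± 0.09, adjusted p = 0.00296) and lower in RV than in LV (-0.40 ± 0.09, adjusted p = 0.00028), as Tbx3 was.

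Of 18 other markers of the conduction system, 17 were tested, 1 was higher and 2 were lower in Spt, with a list median of -0.02, a share near the 13.7% of all genes called. Hcn4, the main pacemaker channel, was higher in Spt at 0.83 ± 0.21 (adjusted p = 0.00336), with a median of 15.4 CPM in Spt against 7.08 in LV and 7.24 in RV. Slit2, a guidance ligand, was lower at -0.52 ± 0.08 (adjusted p = 5.57e-07), and Kcnj5, a subunit of the acetylcholine-activated potassium channel, at -0.25 ± 0.08 (adjusted p = 0.0252). Of 16 genes of the intercalated disc, 11 were in the table and tested. Tjp1 was higher in Spt at 0.21 ± 0.05 (adjusted p = 0.00282) and Ctnnb1 at 0.19 ± 0.06 (adjusted p = 0.0168), and the list's median was 0.05. In RV against LV 6 of the 11 were higher, as Gja1 was, and 1 was lower, where 28.4% of all genes were called, with Ank3 at 0.40 ± 0.05 (adjusted p = 1.17e-08) and Cdh2, the cadherin of the disc, at 0.24 ± 0.05 (adjusted p = 0.00017).

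Markers of other cell types also differed between Spt and the free walls, where 13.7% of all genes were called. Of 8 endothelial markers, 6 were higher in Spt and Vwf was lower (-0.28, adjusted p = 0.00197), with Cdh5 at 0.40 (adjusted p = 0.0216) and Tie1 at 0.31 (adjusted p = 2.49e-05). Of 8 arterial endothelial markers 2 were higher, Dll4 at 0.24 (adjusted p = 0.00497) and Jag1 at 0.19 (adjusted p = 0.0119). The summed level of the 8 endothelial markers was 1000 to 1860 CPM in Spt, 943 to 1619 in LV and 952 to 1654 in RV. Across the 99 libraries, the log2 level of Gja5 followed the summed endothelial markers with Pearson's r = 0.63 and the arterial ones with r = 0.61, and within the 21 groups with r = 0.47 and 0.54. For Tbx3 the values were 0.45 and 0.63, and within groups 0.40 and 0.58. These are correlations across libraries that share animals, series and depth, and the part of endothelial RNA in the Spt difference of both genes was not tested.

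All 7 Schwann cell markers were lower in Spt, among them Mbp at -0.79 (adjusted p = 2.2e-05) and S100b at -0.61 (adjusted p = 7.63e-05). Their summed level was 12.7 to 48.9 CPM in Spt, 24.9 to 63.5 in LV and 25.3 to 75.8 in RV. Cntn2, which neurons and glia also express, followed this sum with r = 0.37 across the libraries and 0.32 within groups, and their part in the lower Cntn2 of Spt was not tested. Of the 8 neuron markers, 4 were tested and Prph was lower (-0.32, adjusted p = 0.00257). Of 5 epicardial markers 4 were lower, led by Msln at -3.19 (adjusted p = 5.7e-07), Upk1b at -2.87 (adjusted p = 2.31e-05) and Krt19 at -2.82 (adjusted p = 5.31e-07), while Wt1 was higher (0.31, adjusted p = 7.36e-05). Of 6 fibroblast markers tested 5 were lower, with Pdgfra at -0.35 (adjusted p = 2.73e-06), Tcf21 at -0.34 (adjusted p = 1.48e-06) and Col1a1 at -0.27 (adjusted p = 0.0105). Of 6 adipocyte markers 3 were lower, Adipoq at -2.24 (adjusted p = 0.00758), Lep at -1.06 (adjusted p = 0.0379) and Cfd at -0.45 (adjusted p = 2.79e-05). Fabp4, by far the most abundant on the list and also made by endothelium, lay at 0.10 (adjusted p = 0.401), and the summed list had a median of 1125 CPM in Spt and 1074 in LV and was lowest in RV.

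Of 9 ventricular cardiomyocyte markers Myh7 was higher (0.41, adjusted p = 0.00325), of 6 smooth muscle markers Mylk (0.18, adjusted p = 0.0123), and of 5 valve and cartilage markers 0 were called by edgeR, with 2 at an unadjusted p under 0.05. Among atrial markers, Myl7 had a median of 4.66 CPM in Spt, 11.1 in LV and 15.6 in RV (log2 fold change -1.39 ± 0.67, adjusted p = 0.173), and Sln a median of 1.60, 3.78 and 3.78 CPM (-1.5 ± 0.64, adjusted p = 0.109). The summed level of 7 atrial markers ran from 80.5 to 17490 CPM over the 99 libraries and was made up mostly of Nppa, a natriuretic peptide that the loaded ventricle also makes, while Bmp10 was at 0 in 70 libraries. Scn4b followed this sum inversely, with r = -0.67 across the libraries and -0.63 within groups. It also followed the 4 neuron markers inversely, with r = -0.74 and -0.72, and so did Tbx3, with r = -0.42 and -0.66. The study counts Uchl1, one of these markers, among the genes that PAB changed in isolated cardiomyocytes. In AOB-F against Sham-LF the atrial list had a median log2 fold change of 2.51 in LV with Nppa alone called (3.73, adjusted p = 0.0472), beside the -0.77 of Scn4b, and its part in that value was not tested.

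The genes most like each of the 6 over the 99 libraries were looked up by Pearson's r of log2 CPM among 11574 genes, with the r within the 21 groups beside it. Scn4b went with Lrrc16b (0.89 and 0.89) and Acsl1 (0.87 and 0.87), an enzyme of fatty acid activation. Tbx3 went with Mgll (0.86 and 0.87), Rnf144a (0.86 and 0.85) and Snrk (0.86 and 0.85). Gjc1 went with Cd38 (0.84 and 0.79), Pfkfb3 (0.77 and 0.74) and Hnrnpul1 (0.77 and 0.70). Gja5 went with Adcy4 (0.79 and 0.64), Eng (0.79 and 0.68), an endothelial receptor of the TGF-beta family, and Amigo2 (0.79 and 0.62). Gja1 went with the splicing factors Srsf1 (0.77 and 0.64) and Hnrnph1 (0.74 and 0.58) and with Dgkz (0.74 and 0.54). Cntn2 had the weakest neighbours, Slit3 (0.64 and 0.60), Tns3 (0.59 and 0.55) and Scd2 (0.57 and 0.61).

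The 6 genes were no single group by this measure. The highest r between any pair of them was 0.55, for Gjc1 and Tbx3, and 0.48 within groups. Gja1 and Gja5 had r = 0.36, Gja1 and Gjc1 had r = -0.45, and Gja5 and Scn4b had r = -0.41. Tbx3 and the connexins it is known to repress had r = -0.16 for Gja1 and 0.23 for Gja5, and within groups 0.11 and 0.18.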

How the data were processed

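Reads were single-end. The authors used Trim Galore for trimming, STAR for alignment against Rnor6.0 and featureCounts for counting, leaving out reads that overlapped more than 1 gene. Whether the counting used strand is not given in the sources used here, so reads of overlapping or antisense genes cannot be assigned with certainty. The deposited counts are whole reads per gene and were not normalized. The deposited normalized counts, a linear signal, were made by the authors with DESeq2 size factors and were not used for tests. The deposited FPKM values, scaled by the authors for gene length, served to compare genes with each other.

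The members and lists were chosen with earlier results of these data known. Chamber comparisons came from 1 edgeR fit (edgeR 4.0.16, R 4.3.3, TMM, filterByExpr) of 99 libraries in 21 groups, banding and age from 1 fit per chamber of 33 libraries. P-values are two-sided and adjusted by Benjamini-Hochberg over all genes of a fit. Log2 CPM used a prior count of 2. The fits recovered known changes in simulated counts that held no animal pairs and no library series. Those changes were larger than the ones of the 6 genes between Spt and the free walls. The simulation therefore does not bear on these limits. LV, Spt and RV of an animal are paired by origin. Deviations from the group means correlated with a median r of 0.16 between LV and Spt, 0.17 between RV and Spt and 0.42 between LV and RV of an animal. Genes named beyond the 6 are the up to 3 with the largest change among those called on each list, the 3 most correlated with each member, and further ones (the transcription factors, Tbx2, Ank3, Cdh2, and genes named as not passing) chosen after their values were seen. Some genes that this rule names are not reported here. RV samples whose tissue field names the left ventricle, and 1 column named after the other older shams, were assigned by title. Spt libraries of AOB-F replicates 1 and 2 are exchanged in a sample sheet of the study. No library of a group was a copy of another. Replicates were separate animals. Counts give precision for counting error only.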

Additional observations from a re-analysis of the deposited data

Results flagged for a closer look

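Of 72 groups of 4 or 7 libraries (6 genes in 12 groups), 6 held a library that stood apart from the rest of its group by Dixon's test at the 95% level, where chance gives about 1 in 20. Gja1 in PAB-H RV replicate 7 was at 506 CPM, against 391 CPM for the nearest library. Gjc1 was low in Sham-H Spt replicate 5 (11.3 CPM, nearest 16.9), in AOB-H Spt replicate 3 (14.6 CPM, nearest 17.6) and in AOB-F LV replicate 4 (14.0 CPM, nearest 15.8). Cntn2 was high in AOB-F LV replicate 2 (2.32 CPM, nearest 1.45) and in Sham-H LV replicate 6 (1.88 CPM, nearest 1.08). Sham-H Spt replicate 5 is the library that deviated most from its group over all genes, and Sham-H replicate 6 is an animal whose LV and RV look exchanged.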

How the results depend on the processing

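Over all alternatives, 1264 of 1379 values kept their direction and side of the threshold. The limits are the imbalance of library series over chambers, the 2 to 4 animals of the failure groups and the low counts of Cntn2. The cause of the changes below was not tested. The alternatives without the animals of series 1, without Sham-H replicate 5 and in the 8 animals were chosen after seeing the data.

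In Spt against the free walls, 0 of the 6 genes were called in the 9 or in the 8 animals of 1 series with the replicate block, or within series 3. There Gja5 was 0.14, 0.11 and 0.0719, Cntn2 -0.75, -0.66 and -0.88 and Tbx3 0.11, 0.23 and 0.19, on the log2 scale. Tbx3 was 0.29 with the series as a covariate and Gja5 0.16 without the animals of series 1. With the replicate block of the animal over all 33 animals the 3 calls stood, at 0.49 for Tbx3, 0.18 for Gja5 and -0.42 for Cntn2, and it raised the count of the 6 genes called from 0 to 3 in Spt against LV (2 with 2 AOB-F Spt libraries exchanged) and from 0 to 3 within single conditions (1 with the series as a covariate). In Spt against LV 1 was called with the series as a covariate, without the 3 animals with exchanged-looking ventricles, and without the animals of series 1. In Spt against RV 1, 0 and 0 were called in the 9, 8 and 6 animals, and 3 with the series as a covariate. In RV against LV 0 were called in each of these 3 subsets.

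Leaving out, 1 at a time, each of the 12 animals of the failure stage or Sham-H replicate 5 (the other compensated-stage animals were not left out singly) gave 0.15 to 0.22 for Gja5 and -0.48 to -0.37 for Cntn2 in Spt against the free walls (Gja5 was not called without Sham-RF replicate 2 or Sham-LF replicate 1, nor Cntn2 without Sham-RF replicate 1), 3 to 5 genes called in Spt against RV, 0 to 1 in the banding comparisons and 0 to 2 for age in Spt. For age in Spt, 2 were called with all 99 libraries in 1 fit and by DESeq2, and 0 with the replicate number as a block, without the 3 exchanged-looking animals or with only the groups compared. For age in RV 2 were called without the animals of series 1. The replicate numbers of banding groups and shams are shared by number only: 15 of 21 pairs of PAB-H and Sham-H libraries deviated together with r above 0.1, and 3 of 9 pairs of AOB-F and Sham-LF.

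Values near 0 turned sign in Spt against LV. Gja1 was -0.0452 in the 9 and -0.0258 in the 8 animals and -0.0299 within series 3. Gjc1 was -0.045 with the series as a covariate, -0.0148 without the exchanged-looking animals, -0.0354 without series 1 and -0.0176 to 0.0217 leaving out 1 of those 13 animals. Tbx3 was -0.0946 in the 9 animals. In RV against LV, Gja5 was -0.10 to 0.0382 leaving out 1 of those 13.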
